A study of Mus musculus with 4 samples.

Results

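The open chromatin of 6 genes that endothelium uses to capture leukocytes was examined: the selectin genes Sele and Selp, the immunoglobulin-superfamily genes Icam1 and Vcam1, and the sialomucin genes Cd34 and Podxl. Every ATAC-seq peak that overlapped the mm10 span of one of these genes, or the 10 kb on either side of it, was taken. The peaks of the 4 lists that overlapped by at least 1 bp were joined into merged regions, which gave 50 regions out of 113056 in the genome. ATAC-seq uses a transposase to insert sequencing adapters into accessible DNA, so a peak marks a stretch where insertions gathered.

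Lung endothelial cells of mice, isolated with a cell sorter, gave 4 libraries: 2 of Dnmt3a knockout (KO) and 2 of wild-type (WT) genotype. The product of Dnmt3a is a DNA methyltransferase, which places methyl groups on CG dinucleotides. The age and sex of the mice, the construction of the knockout allele, any Cre driver and any pooling of animals are not stated in the labels. The comparison asks which stretches of these genes were accessible in endothelium with and without Dnmt3a. The deposited lists hold positions and widths of peaks and no read counts, so depth is unknown and a difference between libraries is a difference in what was listed or how wide it was.

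Leukocytes leave the blood in steps. Selectins on the vessel wall catch and roll passing cells, integrins on the leukocyte then bind immunoglobulin-superfamily molecules and arrest the cell, and the cell crosses the endothelial layer. In resting vessels E-selectin and vascular cell adhesion molecule are scarce and inflammatory cytokines induce them through NF-kB. CD34 and podocalyxin are heavily glycosylated sialomucins of the luminal surface, which take part in leukocyte capture in lymph node venules and keep apposed surfaces apart elsewhere.

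Across the genome the lists held 85091 to 101442 peaks on chromosomes 1 to 19, X and Y, and KO replicate 1 was the shortest list. KO replicate 2 differed from the other libraries in having a peak at 0 of 5 single-copy Y genes, against 3 or 4, and 2 peaks around the high-coordinate end of Xist, against 0. In every library a peak lay within 1000 bp of the start (or, without a promoter entry, of a gene end) at all 10 endothelial marker genes. Of 10 leukocyte markers only Cd2 had such a peak, in every library, and the other 9, among them Ptprc and Cd3e, had none in any. Of 31 markers of leukocytes, platelets, epithelium, mesenchyme and mesothelium together, such a peak was found at 15 (KO replicate 1), 17 (KO replicate 2), 17 (WT replicate 1) and 16 (WT replicate 2). In the same order, epithelial markers had one at 4, 5, 5 and 5 of 6 genes. Mesenchymal and mural markers had one at 4, 5, 5 and 4 of 6. Of all protein-coding start sites, 54.3% had a peak directly over them in all 4 lists, so a peak at a marker is common and does not measure purity. Platelet and megakaryocyte markers, relevant because platelets also carry P-selectin, had a peak at 4 of 5 genes in each library. The part of other cells in the values below was not tested.

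The sequence before the start site is shown for the genes of the set that have an entry in the RefSeq promoter table (GRCm38.p6, the mm10 assembly), because these 4 starts range from a peak in no list to a peak in all 4. Each line gives the 250 bases before the start on the strand of the gene, 5′ to 3′. Capitals mark matches, on either strand, to 1 of 6 motifs. For NF-kB these were GGG and CC with any 5 bases between them. For the AP-1 family of inducible factors the letters were TGANTCA. For ETS factors, many of them active in endothelium, AGGAAG was searched. For SP1, a factor of CG-rich promoters, the motif was GGGCGG. The TATA box was taken as TATAAA. For GATA factors the string was AGATAA.

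Sele, chr1:164047984-164048233, plus strand: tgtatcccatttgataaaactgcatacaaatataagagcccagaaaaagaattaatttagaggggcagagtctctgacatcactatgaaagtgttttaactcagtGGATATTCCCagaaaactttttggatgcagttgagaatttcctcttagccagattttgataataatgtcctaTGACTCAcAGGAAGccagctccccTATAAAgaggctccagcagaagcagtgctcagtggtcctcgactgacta
Selp, chr1:164115014-164115263, plus strand: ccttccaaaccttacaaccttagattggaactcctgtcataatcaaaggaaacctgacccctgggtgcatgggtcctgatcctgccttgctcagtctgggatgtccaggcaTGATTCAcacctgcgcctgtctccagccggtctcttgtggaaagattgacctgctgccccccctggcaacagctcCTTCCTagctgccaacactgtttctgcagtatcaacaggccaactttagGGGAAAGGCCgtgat
Icam1, chr9:21015690-21015939, plus strand: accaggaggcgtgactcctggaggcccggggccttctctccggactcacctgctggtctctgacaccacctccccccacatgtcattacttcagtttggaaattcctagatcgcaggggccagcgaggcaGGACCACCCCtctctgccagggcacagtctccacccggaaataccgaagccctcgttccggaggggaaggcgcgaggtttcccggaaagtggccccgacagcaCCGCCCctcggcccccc
Cd34, chr1:194938571-194938820, plus strand: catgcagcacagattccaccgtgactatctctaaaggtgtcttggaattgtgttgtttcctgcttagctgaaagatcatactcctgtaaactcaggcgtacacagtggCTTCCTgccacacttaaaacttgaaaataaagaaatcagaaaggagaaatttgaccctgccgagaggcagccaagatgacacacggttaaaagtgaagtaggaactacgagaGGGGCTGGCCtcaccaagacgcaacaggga

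The 4 starts differed in CG content and in how many lists had a peak over them. Sele had 1 CG dinucleotide in these 250 bases and a peak over the start in 0 of 4 lists. Selp had 3 and a peak in 3 lists. Cd34 had 6 and Icam1 had 15, and both had a peak in all 4 lists. Among 21263 start sites of protein-coding genes in the same table, 54.3% had a peak in all 4 lists, with a median of 17 CG dinucleotides, 2.14% in 3 lists and 40.7% in none, with a median of 2. An NF-kB match was present before all 4 starts, as it was before 51.8% of these starts, so its presence does not set the 4 genes apart. Before the Sele start the matches were NF-kB at -145 to -136, AP-1 at -73 to -67, ETS at -65 to -60 and a TATA box at -49 to -44, where -1 is the base before the start. AP-1 letters were found before 6.13% of all starts, ETS before 28.5%, SP1 before 42.6%, the TATA box before 11.6% and GATA before 8.81%. No matches overlapped each other at these 4 genes. A match is a string of letters and does not show binding. Sites that depart from these letters were not searched for and stay in lower case, so a marked stretch need not be the site a factor uses.

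Most of the accessible regions at the adhesion genes were listed in every library. Of the 50 regions, 44 (88.0%) were called in all 4 lists, against 66.7% of all merged regions and 68.0% of the 81710 regions in or within 10 kb of a protein-coding gene. A region listed by both KO libraries and by no WT library is called KO pattern here, and the reverse WT pattern. The KO pattern was found at 0 of the 50 regions, against 1.12% of all merged regions and 1.11% of those near genes. The WT pattern was found at 1 region, next to Podxl, which is 2.0% of the 50 against 3.04% of all regions and 2.68% of those near genes. Both counts lay near the background. Without KO replicate 2, the library that stood apart at Xist and the Y genes, the counts were 1 (KO pattern) and 3 (WT pattern), where 3.21% and 11.1% of all regions had these patterns. Without KO replicate 1, the shortest list, they were 1 and 1, against 5.83% and 4.99% of all regions. The other 5 regions outside the shared set were called in 3 lists or in 1. Peaks of the 6 regions not shared by all lists were 201 to 346 bp wide, and a missing peak is not evidence that the site was closed.

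**Figure D1:**
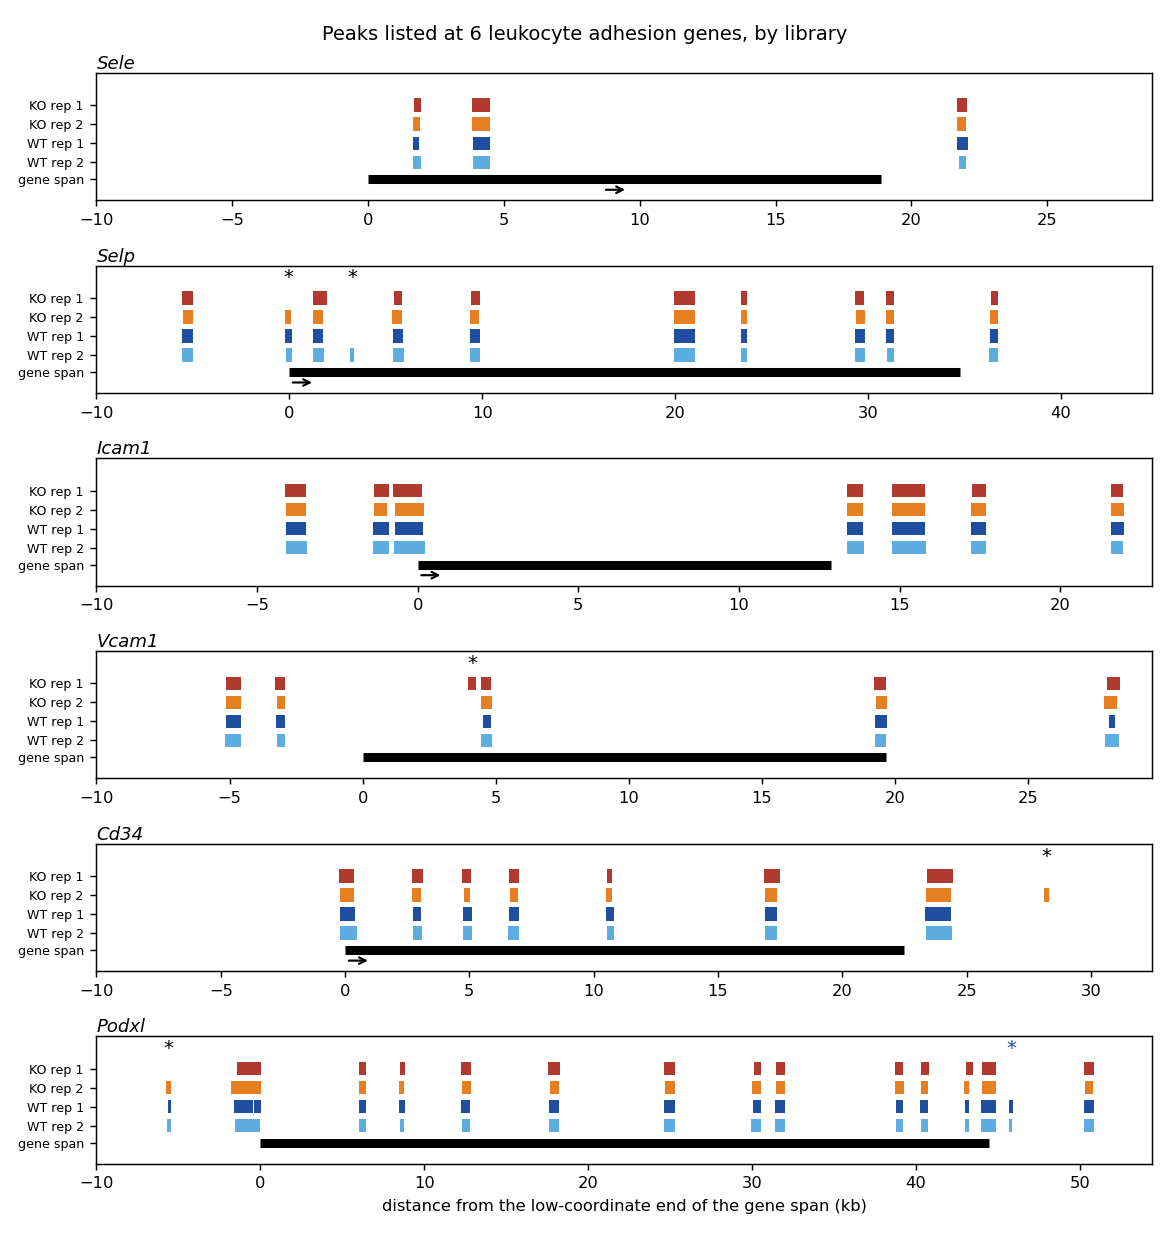
Peaks of each library (coloured boxes, to scale) at the 6 genes, against distance from the low-coordinate end of the gene span in kb; the black bar is the gene span, the arrow the start site of the promoter table where it has one, and an asterisk marks a region not called in all 4 lists (blue: WT pattern). 44 of 50 regions line up across all 4 libraries, and the arrow of Sele has no peak over it.

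Selectins came first in the order of capture. Sele (gene identifier 20339, chromosome 1, 164039614 to 164058487) encodes E-selectin, which is made by endothelium after cytokine exposure. It had 3 peaks in each of the 4 libraries, and all 3 regions were shared. Peaks covered 1285 and 1276 bp in the KO libraries and 1254 and 1184 bp in the WT libraries, so both KO values lay above both WT values by 61.5 bp on average. The annotated start lies 8620 bp inside the span, and the nearest region ended 4118 bp before it. That region (chromosome 1, 164043438 to 164044116) was 658 and 646 bp wide in KO and 654 and 625 bp in WT, which overlap between genotypes. The region farther upstream inside the span measured 252 and 290 bp in KO and 208 and 289 bp in WT. The region beyond the high-coordinate end measured 375 and 340 bp in KO and 392 and 270 bp in WT, and these ranges overlap.

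Selp (gene identifier 20344, chromosome 1, 164115264 to 164150026) encodes P-selectin, which endothelial cells store in Weibel-Palade bodies and move to the surface within minutes of stimulation. It had 11 regions, of which 9 were shared. The libraries listed 9 and 10 peaks in KO and 10 and 11 in WT. The region over the start site (chromosome 1, 164115035 to 164115408) was called in KO replicate 2 (324 bp), WT replicate 1 (346 bp) and WT replicate 2 (309 bp), and KO replicate 1 listed no peak there. The genotypes therefore did not separate at the P-selectin start: the gap came from 1 KO library, the one with the shortest list. Regions missing from KO replicate 1 alone numbered 8580 in the genome, more than for any other library (810 to 2060). Why that library listed no peak at this start was not tested. A 219 bp peak inside the gene was listed in WT replicate 2 only.

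The centre of the widest Selp region lay 20499 bp after the start (chromosome 1, 164135217 to 164136309). It measured 1093 and 1065 bp in KO and 1076 and 1075 bp in WT. The 4 lists placed it almost alike: 97.0% of the merged length was inside the peak of every list, and its width percentiles in the libraries ran from 94.0 to 97.1. Covered sequence at Selp was 4809 and 4984 bp in KO and 5148 and 5487 bp in WT, so the genotypes did not overlap (two-sided exact permutation p = 0.333, the smallest that 2 against 2 libraries allow). The region at its high-coordinate flank overlapped the low-coordinate end of F5, the coagulation factor V gene, and the lncRNA Gm16548.

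The immunoglobulin-superfamily genes hold the arrest step. Icam1 (gene identifier 15894, chromosome 9, 21015940 to 21028814) encodes the ligand of the leukocyte integrin made of Itgal and Itgb2. All 7 of its regions were shared, with 7 peaks in every library. The region over the start (chromosome 9, 21015158 to 21016169) was 923 and 909 bp wide in KO and 879 and 963 bp in WT, with the KO values between the WT values. Peaks covered 4371 and 4381 bp in KO and 4425 and 4537 bp in WT. The gene body beyond the start held no other region. The 4 regions above the span lay at Icam4 and Icam5, neighbouring adhesion genes, including the widest (1041, 1034, 1042 and 1063 bp), which began 95 bp after the end of Icam4. These may belong to the neighbours as well as to Icam1.

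Vcam1 (gene identifier 22329, chromosome 3, 116110020 to 116129688) encodes the ligand of the integrin made of Itga4 and Itgb1. It had 6 regions, 5 of them shared, and 6 and 5 peaks in KO against 5 and 5 in WT. The region over its high-coordinate end (chromosome 3, 116129238 to 116129729) measured 443 and 418 bp in KO and 464 and 410 bp in WT, with the KO values between the WT values. The 6th peak of KO replicate 1, 292 bp wide and inside the gene, overlapped no peak of the other libraries. Each of those libraries did list a peak within 500 bp of it. Peaks covered 2537 and 2218 bp in KO and 1933 and 2240 bp in WT, and these ranges overlap. The lowest value, that of WT replicate 1, came with a narrow peak 8171 bp above the gene (219 bp, against 492, 516 and 521 bp).

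The sialomucin genes held 23 of the 50 regions. Cd34 (gene identifier 12490, chromosome 1, 194938821 to 194961292), a marker of blood progenitors and capillary endothelium, had 8 regions, 7 of them shared. The region over its start (chromosome 1, 194938591 to 194939292) was 585 and 566 bp wide in KO and 640 and 695 bp in WT, so both WT peaks were wider. The widest region lay 849 bp above the span (1062 and 971 bp in KO, 1053 and 1020 bp in WT) and overlapped the lncRNA Gm16897. A 201 bp peak farther above was listed in KO replicate 2 only. Covered sequence was 3662 and 3381 bp in KO and 3618 and 3687 bp in WT, which overlap.

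Podxl (gene identifier 27205, chromosome 6, 31519493 to 31563937) encodes podocalyxin and had 15 regions, 13 of them shared. It listed 13 and 14 peaks in KO and 16 and 15 in WT, which did not overlap. Its peaks covered 7960 and 8336 bp in KO and 8388 and 8407 bp in WT. Covered sequence thus separated the genotypes here as at Sele, Selp and Icam1, with KO above WT only at Sele. The whole lists also covered less sequence in KO (46633120 and 47784920 bp) than in WT (51108815 and 50471744 bp). The shares of all genes that separate in covered sequence or in peak number were not computed. These separations therefore have no background to be set against and are not read as a trait of the adhesion genes. Of the 16 peaks in WT replicate 1, a pair made up a single region that the other libraries listed as 1 peak. That region, over the low-coordinate end (chromosome 6, 31517707 to 31519527), was the widest of all 50, with 1461 and 1806 bp under peaks in KO and 1580 and 1580 bp in WT. It lay 898 bp from Mkln1. The region over the high-coordinate end (chromosome 6, 31563491 to 31564417) measured 884 and 882 bp in KO and 907 and 911 bp in WT.

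The region with the WT pattern lay 1239 bp beyond that end (chromosome 6, 31565176 to 31565418). It was 214 bp wide in WT replicate 1 and 211 bp in WT replicate 2, and neither KO library listed a peak there or within 500 bp. The narrowest peak in any list is 201 bp, and these peaks ranked at the 5.47th and 4.6th percentile of width in their lists. The region was lost when each list was limited to its widest peaks at equal length, and when peaks narrower than the list's median were dropped. A region below Podxl, inside Mkln1, was called in KO replicate 2 (321 bp), WT replicate 1 (224 bp) and WT replicate 2 (232 bp), and again KO replicate 1 had none.

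**Figure D2:**
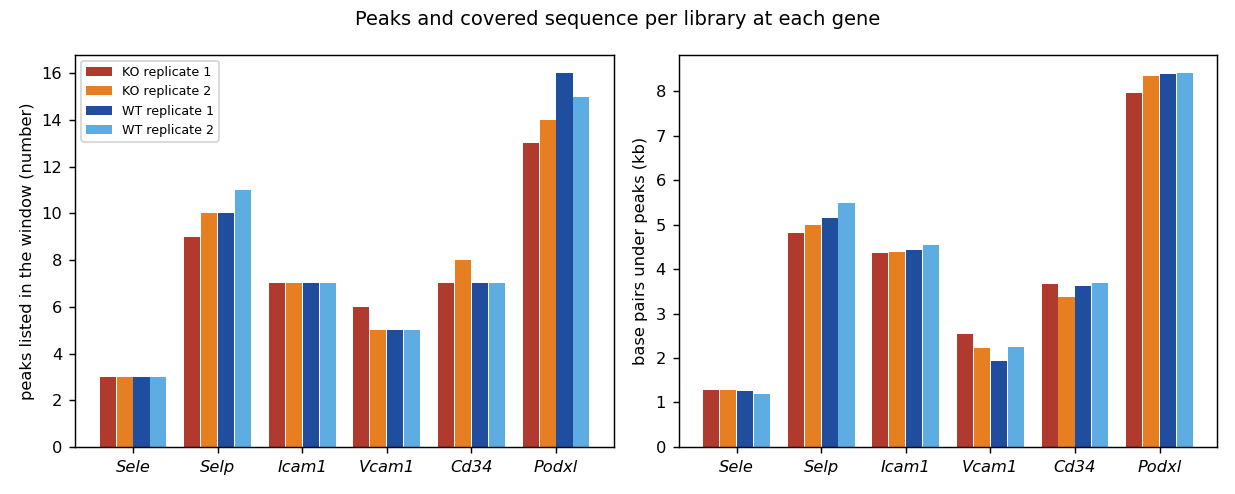
Number of peaks (left) and sequence under peaks in kb (right) within each gene and 10 kb either side; each bar is 1 library. Podxl was highest in both, with 13 to 16 peaks, and Sele lowest, with 3 peaks in every library.

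Relative to window length, Podxl had 2.33 regions per 10 kb, Icam1 2.13, Selp 2.01, Cd34 1.88, Vcam1 1.51 and Sele 0.772, against a median of 0.672 over 21887 protein-coding genes. Podxl thus had a higher density than 95.9% of these genes and Sele than 55.0%. These densities come from merged lists, so they carry no error between libraries.

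Summed over the 6 genes the libraries listed 45 and 47 peaks in KO and 48 and 48 in WT (46.0 ± 1.41 and 48.0 ± 0, SD, n = 2 each, two-sided exact permutation p = 0.333). Peaks covered 24624 and 24576 bp in KO and 24766 and 25542 bp in WT (24600 ± 33.9 and 25154 ± 549, SD, n = 2 each, exact permutation p = 0.333). Both KO sums were below both WT sums, by 554 bp in the means. As a share of all sequence under peaks in the list, the order turned: 0.0528% and 0.0514% in KO against 0.0485% and 0.0506% in WT (two-sided exact permutation p = 0.333). For the share of peaks the KO values were 0.0529% and 0.0466% and the WT values 0.0473% and 0.0492%, which overlap. With 2 libraries per genotype this test cannot give a p below 0.333, so none of the 12 tests by gene could have reached 0.05. After Benjamini-Hochberg adjustment over the genes the smallest p was 0.5 for covered sequence and 1 for peak number. These tests therefore cannot decide whether the genotypes differ. Separate mice for the libraries of 1 genotype are not stated in the labels, so these p-values refer to the libraries and not to mice.

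Peak widths at the 44 shared regions were tested on a log2 scale after quantile normalisation, by a limma model fitted over all 75395 regions called in 4 lists. None of the 44 regions passed a Benjamini-Hochberg adjusted p of 0.05, and neither did any region of the genome (0.0%), where 4546 (6.03%) had an unadjusted p under 0.05. Among the 44, only 1 had an unadjusted p under 0.05, a region inside Cd34. The median log2 difference, KO minus WT, was 0.03 over the 44 regions and 0.01 over all regions, with 26 of 44 above 0 and 18 below. Without normalisation the medians were -0.02 and -0.05 and the split turned to 18 above 0 and 26 below. Icam1 varied least, from -0.03 to 0.09, and its 7 regions had a median of 88.1% of their length shared by all 4 lists, against 76.1% over all regions and 80.9% over the adhesion genes.

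Counts of regions whose 2 KO widths lay entirely on 1 side of the 2 WT widths changed with the scaling. After quantile normalisation 8 of 44 regions (18.2%) were wider in both KO libraries and 5 (11.4%) in both WT libraries, against 20.3% and 14.8% of all shared regions. With widths as listed the numbers were 4 (9.09%) and 13 (29.5%), against 7.37% and 27.1%. Under either scaling the adhesion genes lay near the genome.

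**Figure D3:**
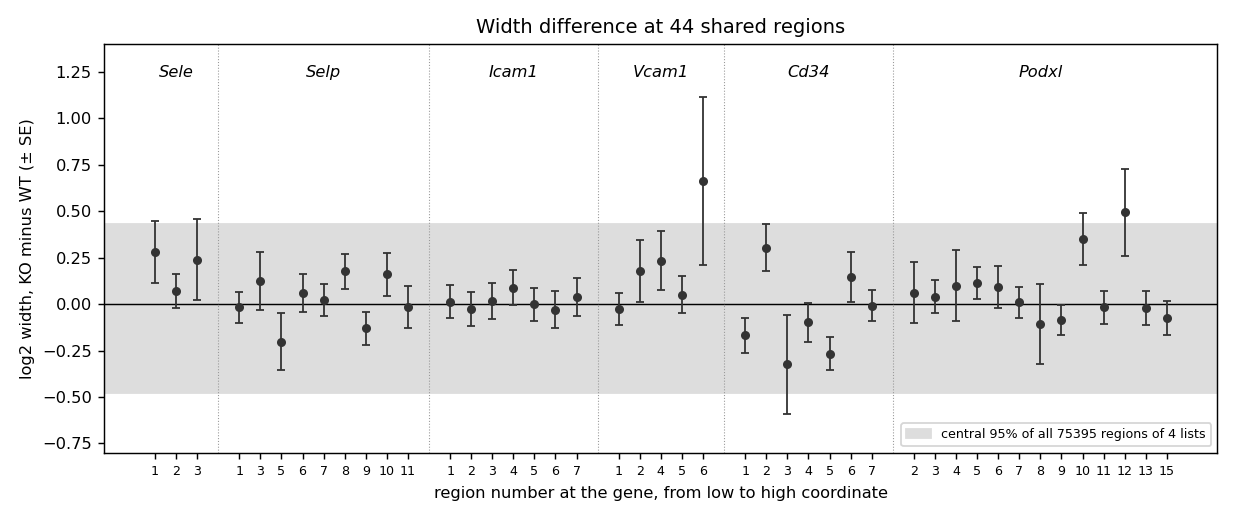
Difference in log2 peak width between KO and WT (points, bars ± SE from limma) at each of the 44 shared regions, numbered along each gene, with the central 95% of all 75395 shared regions in grey. All but 2 points, at Vcam1 and Podxl, lie in the grey band.

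The largest width differences moved when single libraries were left out. At the region above Vcam1 the log2 difference was 0.66 (SE 0.452, limma adjusted p = 0.922), and without WT replicate 1, the library with the 219 bp peak, it was 0.02, against 1.30 without WT replicate 2. At a Podxl region near the high-coordinate end (chromosome 6, 31562460 to 31562964) the peaks measured 381 and 254 bp in KO and 236 and 238 bp in WT. Both KO peaks were wider, with a log2 difference of 0.49 (SE 0.234, limma adjusted p = 0.891), which was 0.20 without KO replicate 1 and 0.82 without KO replicate 2. At a Cd34 region (chromosome 1, 194943541 to 194943944) KO replicate 2 had 223 bp against 354, 371 and 387 bp in the others. Its log2 difference of -0.33 (SE 0.266, limma adjusted p = 0.93) turned to 0.04 without that library and was -0.66 without KO replicate 1. At Sele the largest difference was 0.28 (SE 0.168, limma adjusted p = 0.922), in the region farthest upstream, which gave 0.07 without WT replicate 1 and 0.47 without WT replicate 2. At Selp it was -0.20 (SE 0.154, limma adjusted p = 0.926), in a region centred 5642 bp after the start with 399 and 494 bp in KO and 512 and 571 bp in WT, and it was -0.03 without KO replicate 1 and -0.39 without KO replicate 2. At Icam1 it was 0.09 (SE 0.0921, limma adjusted p = 0.946), in the region that overlaps Icam4, with 0.03 without KO replicate 2 and 0.14 without KO replicate 1.

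The Cd34 region with the unadjusted p under 0.05 was singled out after its values were seen. It lies inside the gene (chromosome 1, 194949316 to 194949632) and measured 206 and 245 bp in KO and 317 and 295 bp in WT. The KO peaks were narrower in both libraries, with a log2 difference of -0.27 (SE 0.0889, limma unadjusted p = 0.038, adjusted p = 0.788). The region therefore missed the threshold.

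**Figure D4:**
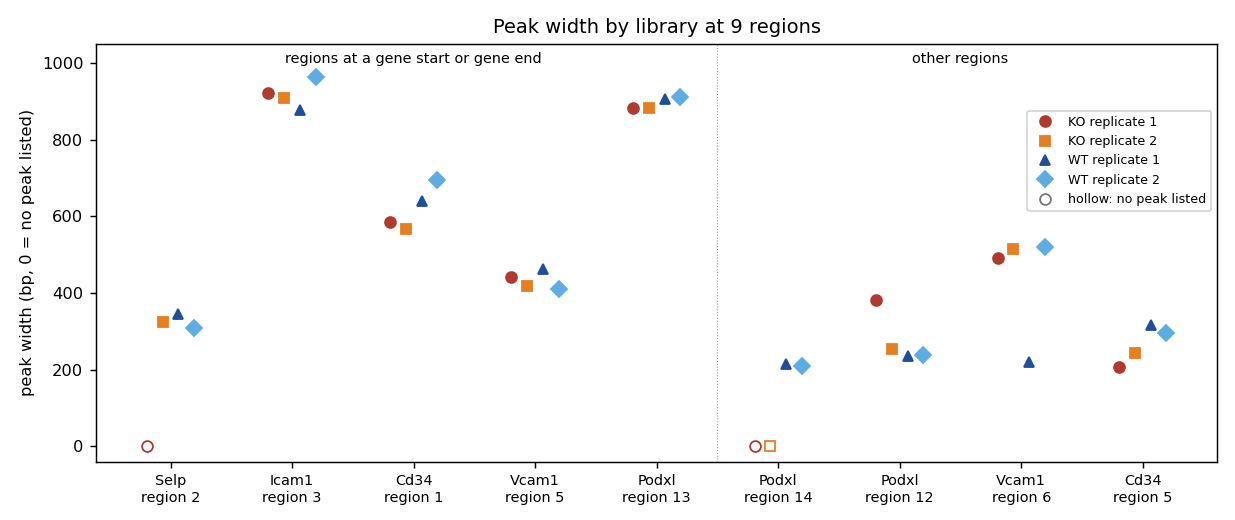
Peak width in bp in each library (1 point per library, hollow where no peak was listed) at 9 regions, those at a gene start or gene end on the left. Widths are as listed. At Icam1 region 3 and Vcam1 region 5 the KO points lie between the WT points. At Cd34 region 1 and Podxl region 13 both WT peaks are wider. After quantile normalisation the genotypes overlap at Podxl region 13 (850.3 and 928 bp in KO, 905.5 and 899.8 bp in WT). KO replicate 1 has no peak at Selp region 2, and at Vcam1 region 6 the low point is WT replicate 1.

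Other genes of leukocyte recruitment were counted in the same windows. The 47 genes, which do not include the 6 above, had 336 regions, counting a region for each gene whose window it met. Of these 247 (73.5%) were shared by all lists, 4 (1.19%) had the KO pattern and 4 (1.19%) the WT pattern, against 1.12% and 3.04% of all merged regions. Adhesion and junction genes were 81.2% shared and cortical linkers of the sialomucins, such as Ezr and Msn, 80.4%. Leukocyte counter-receptors were 59.4% shared, selectin ligand synthesis genes 60.6%, and chemokines 57.6%.

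WT-pattern regions of the list lay inside Pecam1, a junctional adhesion gene (237 and 279 bp in WT), inside F11r, which encodes a junctional adhesion molecule (211 and 201 bp), inside Itgb1 (243 and 316 bp) and 3810 bp from Tnfrsf1a, a TNF receptor gene (217 and 236 bp). KO-pattern regions lay inside Nfkb1, which encodes an NF-kB subunit (242 and 319 bp in KO), 6706 bp from Rela, another NF-kB subunit gene (456 and 481 bp), and between Cxcl1 and Cxcl2, neutrophil chemokine genes, where 1 region (201 and 220 bp) was counted for both. The 2 patterns thus fell at 4 genes each. Over all protein-coding genes, 4.41% had a KO-pattern region in their window and 9.47% a WT-pattern region.

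For each adhesion gene, the list gene with the most similar covered sequence across the 4 libraries was found by Euclidean distance, after each gene was divided by its own mean (43 list genes with a peak in every library). Cd34 and Icam1 were closest to Msn (0.0281 and 0.0408), Selp to Jam2 (0.0296), Sele to Ezr (0.0386), Podxl to Fut4 (0.0386) and Vcam1 to Rela (0.129). The median distances ran from 0.153 to 0.275. With 4 libraries that differ in list length, this likeness is a description only.

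The window decided a few regions at its edge. The farthest region inside was 8700 bp from Icam1 (362 and 408 bp in KO, 413 and 391 bp in WT). The nearest outside was 10362 bp from Sele (a 255 bp peak in WT replicate 2 only), followed by 1 at 10448 bp from Cd34 (699 and 642 bp in KO, 656 and 657 bp in WT). A window of 25 kb added a second WT-pattern region, 21295 bp from Vcam1 (chromosome 3, 116150983 to 116151224), with peaks of 234 and 216 bp in WT.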

How the data were processed

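ATAC-seq peak lists of 4 libraries of sorted mouse lung endothelial cells were used, 2 KO and 2 WT, grouped by the labels. Tools named in the submitters' processing notes are Bowtie2, cutadapt and Picard, with the build mm10 and neither version nor role. How peaks were called, the threshold, read filters and any transposase shift are not given in the sources used here. The authors deposited 1 list per library, with peak width in base pairs, not normalised, as the only value per the file headers. Starts in the lists reach 0, so a printed start may be 1 bp low and a width 1 bp high. Peaks off chromosomes 1 to 19, X and Y (92 to 134 per list) were left out.

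Gene spans came from RefSeq (GRCm38.p6), and all 6 genes matched. The promoter table held 4 of them; for Vcam1 and Podxl gene ends were used. Regions were named by a fixed rule: start or end region, widest region, largest width difference and genotype patterns. The genes, lists and tests were chosen with earlier results of these data known. Covered sequence and peak number were compared by two-sided exact permutation over libraries, and widths by limma with Benjamini-Hochberg adjustment over all shared regions. The log2 width of regions was quantile-normalised here, from the deposited widths. The merging of peaks, the pattern rule and the limma fit were tested on simulated data, and the permutation test was not. The width shifts planted for limma were larger than any seen at the adhesion genes, so that test does not show that differences of their size would be found. Python 3.11.15, numpy 2.4.6, pandas 2.3.3, R 4.3.3 and limma 3.58.1 were used.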

Additional observations from a re-analysis of the deposited data

How the results depend on the processing

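Limiting each list to its widest peaks at equal length, or to peaks at or over its median width, left 0 WT-pattern regions instead of 1, since the Podxl peaks are narrow; a 25 kb window gave 2. Equal length also turned the differences, KO minus WT, to 113 bp of covered sequence and 1 peak, and so did shares of the list total, to 0.002585 percentage points of covered sequence and 0.001495 of peaks; the cause was not tested. Leaving out each library in turn gave 0 to 1 KO-pattern regions (1.89% to 5.83% of all regions) and 1 to 3 WT-pattern regions (4.99% to 11.1% of all regions), differences of -942 to -166 bp and -3 to -1 peaks, with 1 list fewer to meet. The Cd34 region with -0.33 ran from -0.661 without KO replicate 1 to 0.0379 without KO replicate 2; a genotype left with 1 library is assumed to vary like the other. A 100 bp overlap, a 500 bp gap and a 5 kb window kept both pattern counts. No width difference at the adhesion genes passed the adjusted threshold in limma under the alternatives that kept all 4 libraries. Without normalisation, and with a replicate block, 1 of 44 regions had an unadjusted p under 0.05. With regions of 3 or more lists, a missing width set to the narrowest, 0 of 46 had. Same-numbered libraries did not deviate together (r = -0.04 across 75395 regions, which are not independent), and the replicate block gave 0 adjusted calls, with 4394 of all regions at an unadjusted p under 0.05. List length and unknown depth limit every statement on a missing peak.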
